A study of Mus musculus with 19 samples.

Results

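Left ventricles of JP2NT-OE mice were compared with those of littermate controls after transverse aortic banding (TAB), surgery in which a constriction of the aorta forces the ventricle to pump against a higher pressure. The comparison held the 3 JP2NT-OE and 3 control RNA-seq libraries whose titles carry the TAB label, 6 of the series' 19 samples and 6 of its 12 RNA-seq libraries. JP2NT-OE mice carried an HA-tagged JP2NT transgene under the a-MHC promoter, which drives expression in cardiomyocytes, and controls were littermates that lacked it. The 6 libraries came from males banded at 9 weeks of age and sampled 3 weeks later, at 12 weeks. The other 6 libraries, 3 for each genotype, came from littermates of the same age without surgery (baseline in the labels), whose sex is not given. There was no sham-operated group, and the labels name neither the strain nor the number of transgenic lines. They number the replicates without saying that each was a separate mouse, so p-values measure only the spread between these libraries.

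Junctophilin-2 anchors the transverse tubules of heart muscle cells to the sarcoplasmic reticulum, which brings calcium channels at the surface close to the calcium release channels inside. Under cardiac stress the protein is cut by the protease calpain, and the N-terminal fragment, JP2NT, moves to the nucleus and acts there on transcription. Pressure overload is known to lower transcripts of mature heart muscle, such as those of energy metabolism, and to raise transcripts of the fetal heart programme and of the extracellular matrix. The comparison asked how the banded ventricle differed when the fragment was supplied by a transgene.

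The unit measured was the transcript. The deposited tables list Ensembl transcript IDs without gene names, and 0 of the 96626 IDs were found in the tables of gene names used here. Transcripts are therefore described by ID, length and level. Heart muscle markers, markers of other cell types and the transgene's own gene could not be read, and no sequences are shown. The banded libraries held 38255668 to 53097801 estimated counts each, and the unoperated ones 37662212 to 44634328. The 20 most abundant transcripts took 34.6% to 35.2% of the counts in banded controls and 37.8% to 39.5% in banded JP2NT-OE libraries. A lower level in whole ventricle can come from fewer cells of a type or from less RNA per cell, which cannot be told apart here.

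Most called differences between the banded genotypes were small, and which direction held more calls depended on the scaling. Of 43256 transcripts tested, 195 differed (0.451%, edgeR quasi-likelihood test, Benjamini-Hochberg adjusted p under 0.05). Of these, 138 were higher (0.319%) and 57 were lower (0.132%) in banded JP2NT-OE hearts with TMM factors, whereas library totals gave 51 higher and 79 lower and limma on log2(TPM + 1) gave 51 and 365. The median log2 fold change was 0.49 among those that were higher, with quartiles of 0.39 and 0.78. Among those that were lower it was -0.61, with quartiles of -1.14 and -0.46. A difference of at least 1 on the log2 scale was reached by 25 of the 138 (18.1%) and 17 of the 57 (29.8%), and 90 of the 195 (46.2%) differed by less than 0.5. In all 195 the 3 libraries of one genotype lay wholly above or below the 3 of the other, as they did in 16.7% of the transcripts tested.

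**Figure D1:**
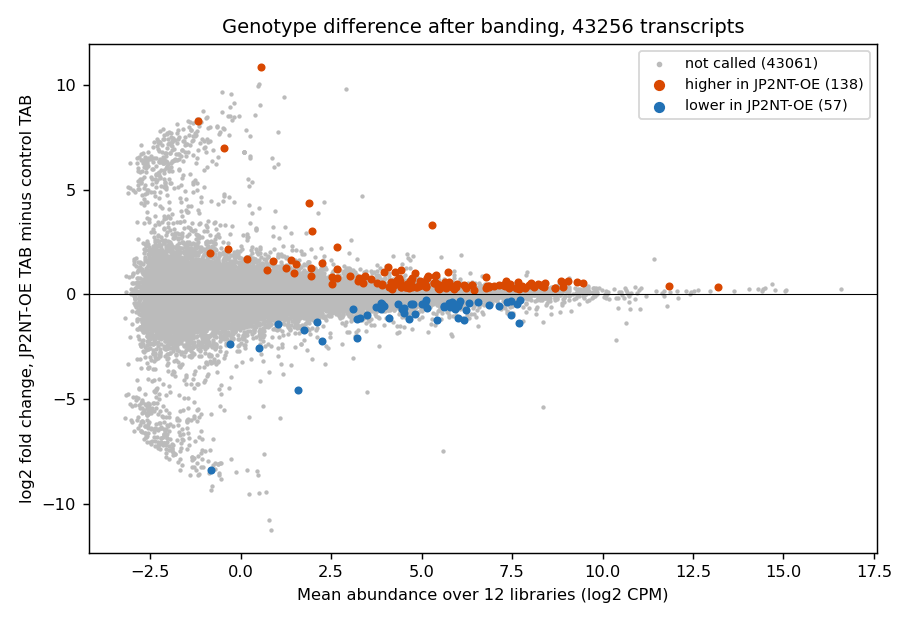
Log2 fold change between banded JP2NT-OE and banded control hearts (vertical axis) against mean abundance over 12 libraries in log2 CPM (horizontal axis), 1 point per transcript. The 138 called higher (orange) and 57 called lower (blue) lie mostly to the right, where abundance is high, at small fold changes, and the fold changes of uncalled transcripts (grey) spread widely at low abundance.

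The transcript with the smallest p-value was kept at a high level in banded JP2NT-OE hearts and was low in banded controls. ENSMUST00000034172.7, of 2004 bases, stood at 33.1, 32.5 and 52.2 CPM (TMM-scaled counts per 1e6 counts) in replicates 1, 2 and 3 of JP2NT-OE TAB. In control TAB it stood at 4.63, 4.15 and 2.82 CPM. The lowest JP2NT-OE library was thus well above the highest control library. The group means, 39.3 ± 11.2 CPM against 3.87 ± 0.940 CPM (SD, n = 3), differed 10.2-fold (log2 fold change 3.34 ± 0.25 SE, adjusted p = 0.00292 by edgeR). Unoperated libraries ranged from 45.8 to 59.7 CPM in JP2NT-OE and from 49.6 to 66.4 CPM in controls. JP2NT-OE TAB replicate 3 lay inside the unoperated range of both genotypes, while replicates 1 and 2 lay below it. The genotype difference after banding exceeded that in unoperated hearts by 3.56 ± 0.32 SE on the log2 scale (interaction, adjusted p = 0.0231 by edgeR, a call made for 0.00231% of all transcripts). The call after banding held when any 1 of the 6 banded libraries was left out (adjusted p from 0.00327 to 0.0198 by edgeR). It was lost when the 6 banded libraries were fitted alone (adjusted p = 0.108 by edgeR, with the log2 fold change again 3.34).

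The largest difference in the higher direction under the rule for named transcripts belonged to one that separated the genotypes with and without banding. ENSMUST00000114492.7, of 3565 bases, was at 7.05, 8.54 and 6.84 CPM in the JP2NT-OE TAB libraries. The control TAB libraries had 0.541, 0.440 and 0.0909 CPM. The JP2NT-OE libraries were all high and the control libraries all close to 0, with 48.2 estimated counts over the 3 control libraries together. Means of 7.48 ± 0.929 and 0.357 ± 0.236 CPM (SD, n = 3) gave a 20.9-fold difference (log2 fold change 4.38 ± 0.79 SE, adjusted p = 0.0492 by edgeR). In unoperated hearts it was at 3.58 to 9.55 CPM in JP2NT-OE and 0 to 0.512 CPM in controls. That log2 fold change was 4.60 ± 0.81 SE and missed the threshold over all transcripts (adjusted p = 0.375 by edgeR). The call after banding was lost when any 1 banded library was left out (adjusted p from 0.0944 to 0.147 by edgeR, log2 fold change 3.93 to 4.78). It was also lost with library totals, without the filter on low counts and with the 6 banded libraries alone (adjusted p of 0.0587, 0.0591 and 0.151 by edgeR). On the log2(TPM + 1) scale its difference was 1.64, a scale that shrinks folds at such low levels, and the call was kept (adjusted p = 0.00981 by limma). Of 15 alternatives, 5 kept the call and 10 lost it.

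Among the transcripts that were lower, the largest difference under the rule was in one almost absent from unoperated hearts. ENSMUST00000054599.7, of 806 bases, was at 0.838, 0.399 and 0.158 CPM in JP2NT-OE TAB replicates 1, 2 and 3. In control TAB it was at 15.95, 15.7 and 2.27 CPM. Control replicate 3 was low, and still above each JP2NT-OE library. The means, 0.465 ± 0.345 and 11.3 ± 7.82 CPM (SD, n = 3), differed 24.3-fold (log2 fold change -4.57 ± 0.78 SE, adjusted p = 0.0405 by edgeR). Unoperated libraries held 0 to 2 counts of it in either genotype. Its estimated counts were whole numbers in all 12 libraries, as they are when no read is divided between transcripts. The call was kept without control TAB replicate 3 (adjusted p = 0.0164 by edgeR). It was lost without any other 1 banded library (adjusted p from 0.0646 to 0.140 by edgeR, log2 fold change -5.33 to -4.17) and with the 6 banded libraries alone (adjusted p = 0.210 by edgeR).

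ENSMUST00000025409.7, of 3604 bases, came next among the lower ones. It was at 2.84, 3.21 and 1.67 CPM in JP2NT-OE TAB and at 10.5, 17.9 and 8.11 CPM in control TAB, again with no overlap. The means of 2.58 ± 0.806 and 12.2 ± 5.09 CPM (SD, n = 3) differed 4.72-fold (log2 fold change -2.24 ± 0.33 SE, adjusted p = 0.0275 by edgeR). Unoperated libraries were at 1.90 to 2.65 CPM in JP2NT-OE and 1.34 to 1.93 CPM in controls. JP2NT-OE TAB replicate 3 lay inside that span, and replicates 1 and 2 lay just above it. Here too the call was kept without control TAB replicate 3 (adjusted p = 0.0282 by edgeR) and lost without any other 1 banded library (adjusted p from 0.0646 to 0.0729 by edgeR). With the 6 banded libraries alone the adjusted p was 0.177 by edgeR.

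**Figure D2:**
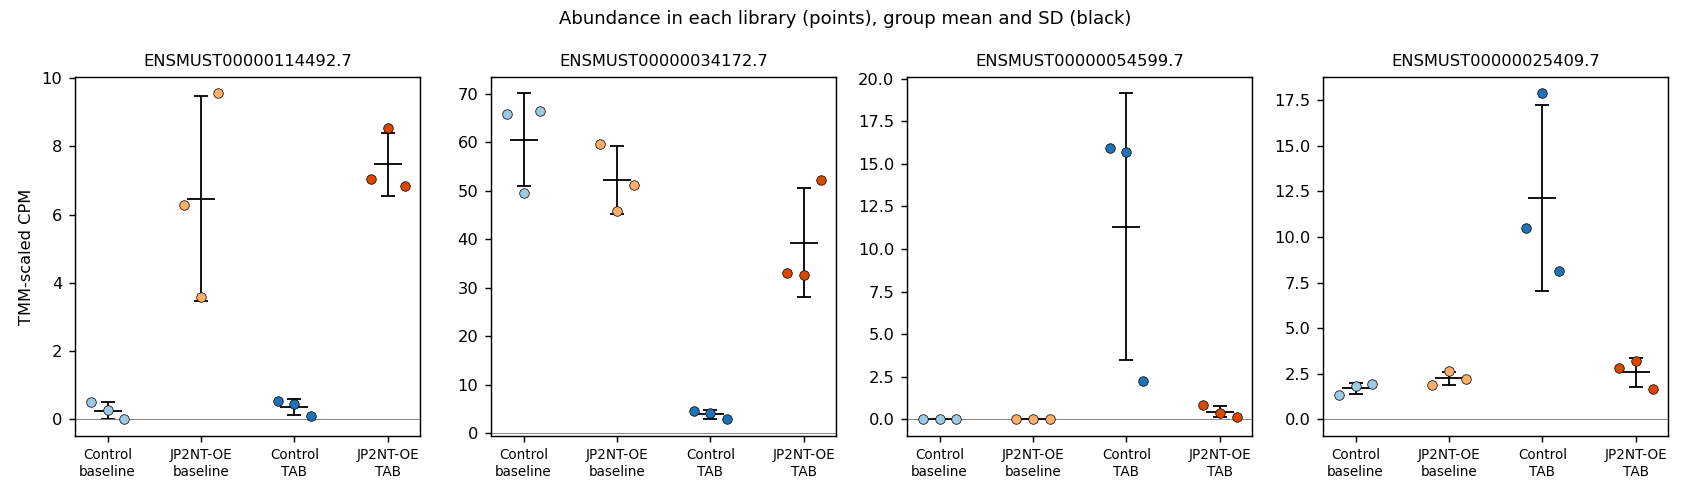
TMM-scaled CPM (vertical axes, with 0 marked by a line) of the 4 named transcripts in each of the 12 libraries (points, 3 per group), with the group mean and SD in black. In ENSMUST00000034172.7 only the banded controls are near 0, ENSMUST00000114492.7 separates the genotypes in both conditions, and ENSMUST00000054599.7 and ENSMUST00000025409.7 have their highest group mean in banded controls.

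The first 12 transcripts in each direction under the same rule included further examples. Log2 fold changes ran from 1.19 to 4.38 among the 12 that were higher and from -4.57 to -1.14 among the 12 that were lower. The fourth of the higher ones, of 5108 bases and with whole counts, was at 8.47, 5.21 and 4.49 CPM in JP2NT-OE TAB and 0.941, 1.49 and 1.32 CPM in control TAB (log2 fold change 2.27 ± 0.30 SE, adjusted p = 0.0230 by edgeR). Its unoperated means were 8.30 ± 2.38 CPM in JP2NT-OE and 9.55 ± 1.68 CPM in controls (SD, n = 3). The JP2NT-OE mean after banding, 6.06 ± 2.12 CPM, was nearer to these than to the banded control mean of 1.25 ± 0.280 CPM. Its call was kept without JP2NT-OE TAB replicate 1 or 3 and lost without any other 1 banded library (adjusted p up to 0.0697 by edgeR).

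The third of the lower ones, of 11511 bases, was at 8.71, 7.65 and 2.77 CPM in JP2NT-OE TAB and 27.2, 32.3 and 20.3 CPM in control TAB (log2 fold change -2.06 ± 0.34 SE, adjusted p = 0.0381 by edgeR). Its unoperated means were 2.12 ± 0.128 CPM in JP2NT-OE and 1.64 ± 0.241 CPM in controls (SD, n = 3). Each JP2NT-OE TAB library lay between these means and the banded control libraries. Its call was kept without JP2NT-OE TAB replicate 3 and lost without any other 1 banded library (adjusted p up to 0.117 by edgeR). These and the transcripts described below by length alone were singled out after their values were seen.

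Summed over the called transcripts, the banded JP2NT-OE libraries lay between the unoperated libraries and the banded controls. The 138 that were higher held 24174 ± 1275 CPM in JP2NT-OE TAB and 17953 ± 446 CPM in control TAB (SD, n = 3). In unoperated hearts they held 30022 ± 953 CPM in JP2NT-OE and 30514 ± 347 CPM in controls. One transcript of 3984 bases accounted for 8409 ± 530 CPM of the sum in JP2NT-OE TAB. The 57 that were lower held 2759 ± 132 CPM in JP2NT-OE TAB and 4314 ± 99.0 CPM in control TAB, against 2500 ± 40.0 and 2356 ± 65.3 CPM in unoperated JP2NT-OE and control hearts. Because the transcripts were picked for the difference between the banded groups, these values describe that choice and carry no test. The same banded control libraries set both the choice and the distance from unoperated hearts.

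The median transcript of each set, taken relative to its mean over 12 libraries, placed the libraries in the same order. In the set that was higher it stood at -0.46 to -0.45 log2 units in banded controls, 0.01 to 0.09 in banded JP2NT-OE and 0.19 to 0.23 in unoperated libraries. In the set that was lower it stood at 0.49 to 0.66 in banded controls, -0.14 to 0.00434 in banded JP2NT-OE and -0.36 to -0.21 in unoperated libraries. JP2NT-OE TAB replicate 3 was the library of its group closest to the unoperated ones in both sets. Over all tested transcripts this median stayed between 0.02 and 0.04 in every library.

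**Figure D3:**
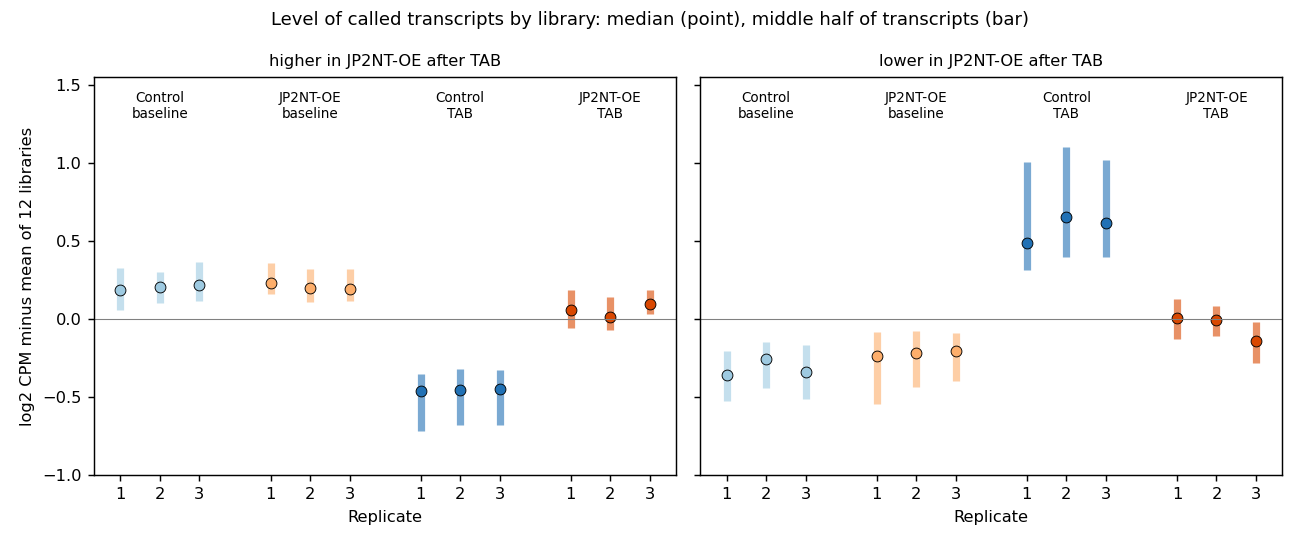
Log2 CPM relative to each transcript's mean over 12 libraries (vertical axes) for the 138 transcripts called higher (left) and the 57 called lower (right) in banded JP2NT-OE, by library. Points are medians and bars run between the quartiles. The medians of the banded JP2NT-OE libraries lie between those of the banded controls and of the unoperated libraries.

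In unoperated hearts most of the called transcripts differed little between genotypes. Those libraries did not enter the banded means, but they entered the estimate of spread behind the calls. A small spread among them thus favoured a call. The log2 fold change in unoperated hearts was under 0.5 in size for 183 of the 195 (93.8%), and for 76.7% of all tested transcripts. The 195 were more abundant (median log2 CPM 5.10 against 0.54 for all tested) and had smaller SEs after banding (median 0.08 against 0.34). These shares are therefore not of like transcripts. The median unoperated log2 fold change was -0.000855 for the 138 that were higher after banding and 0.08 for the 57 that were lower. An unadjusted p under 0.05 was reached in unoperated hearts by 20 of the 195 (10.3%) and by 4.39% of all tested transcripts in edgeR. Of the 195, 2 were called there, where 0.00694% of all transcripts were called. The interaction, which tests whether the genotype difference changed with banding, was called for 1 of the 195 (0.00231% of all transcripts). For the others a genotype difference limited to banded hearts was thus not established.

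A smaller group carried a genotype difference in the same direction in both conditions. A difference of at least 1 in unoperated hearts was found in 8 of the 195 (4.10%, against 9.47% of all tested transcripts, whose median abundance is lower), and 6 of these 8 were higher in JP2NT-OE in both conditions. Besides ENSMUST00000114492.7, they had lengths of 1766, 653, 2705, 3038 and 1370 bases. The transcript of 2705 bases was at 4.92, 5.09 and 6.02 CPM in JP2NT-OE TAB and 0.188, 0.796 and 0.977 CPM in control TAB (log2 fold change 3.02 ± 0.44 SE, adjusted p = 0.0275 by edgeR). In unoperated hearts it was at 7.95, 12.3 and 7.48 CPM in JP2NT-OE and 0.341, 0.344 and 0.272 CPM in controls (log2 fold change 4.84 ± 0.49 SE, adjusted p = 0.0422 by edgeR). The groups did not overlap in either condition, where 16.7% of all transcripts had no overlap after banding and 9.95% in unoperated hearts. The call after banding was kept without control TAB replicate 1 or 3 and lost without any other 1 banded library (adjusted p up to 0.0848 by edgeR).

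The transcripts of 3038 and 1370 bases showed similar differences with and without banding. That of 3038 bases had a log2 fold change of 1.60 ± 0.23 SE after banding and 1.61 ± 0.23 SE in unoperated hearts, with adjusted p of 0.0262 and 0.167 by edgeR. That of 1370 bases had 1.02 ± 0.15 SE and 1.19 ± 0.15 SE, with adjusted p of 0.0283 and 0.1102 by edgeR. Both calls after banding were lost when any 1 banded library was left out (adjusted p from 0.0578 to 0.0848 for that of 3038 bases and from 0.0567 to 0.0920 for that of 1370 bases by edgeR). Those of 1766 and 653 bases were at or near 0 in each of the 6 control libraries, with at most 0.0227 CPM. They stood at 0.765 to 0.985 and 1.11 to 1.44 CPM in the JP2NT-OE TAB libraries, and their calls were lost in 5 and 4 of the 6 fits without 1 banded library (adjusted p up to 0.0722 and 0.0696 by edgeR). The second transcript called in both conditions, of 4211 bases, was abundant. It was at 563, 555 and 670 CPM in JP2NT-OE TAB and 337, 388 and 418 CPM in control TAB (log2 fold change 0.65 ± 0.10 SE, adjusted p = 0.0295 by edgeR), and its unoperated log2 fold change was 0.89 ± 0.10 SE (adjusted p = 0.0428 by edgeR). Its call after banding was kept without control TAB replicate 3 and lost without any other 1 banded library (adjusted p up to 0.0884 by edgeR). Whether any of these reads came from the transgene was not tested.

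**Figure D4:**
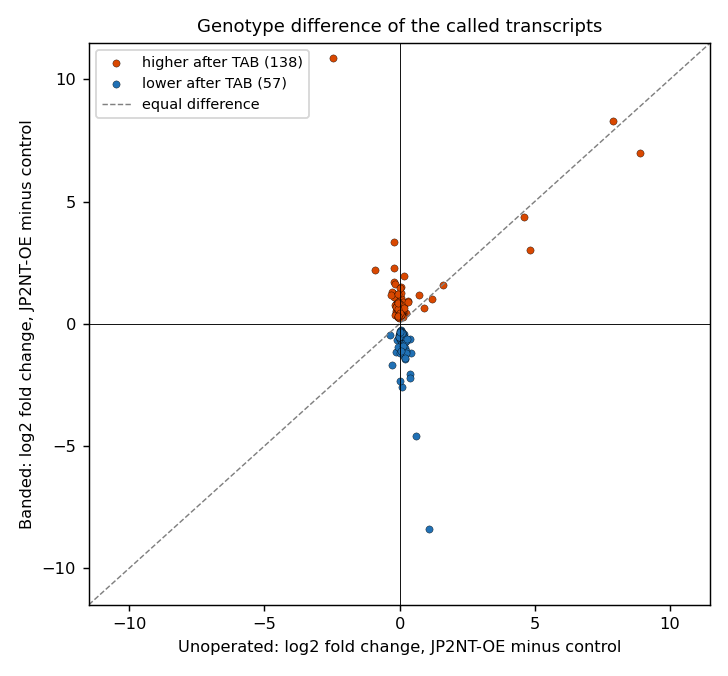
Log2 fold change between JP2NT-OE and control hearts after banding (vertical axis) against the same difference in unoperated hearts (horizontal axis) for the 195 called transcripts. Most points lie near 0 on the horizontal axis. The 6 with differences of at least 1 in the same direction in both conditions lie to the upper right, around the dashed line of equal differences. Opposite signs were seen for the transcripts of 2898 bases (10.86 banded, -2.46 unoperated) and 991 bases (-8.39 banded, 1.08 unoperated).

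Abundant transcripts differed by modest amounts. Of the 100 with the highest mean TPM in the banded libraries, 3 were called (3%, against 0.451% of all tested), all of them higher in JP2NT-OE, and of the first 1000, 33 were higher and 9 lower (4.2%). With TMM factors the median log2 fold change of these lists was 0.14 and 0.07, against -0.00329 for all tested transcripts. Library totals gave 0.07 and -0.01 against -0.08, and limma on log2(TPM + 1) gave -0.00314 and -0.08 against -0.07. In the first 100, library totals called 2 higher and 0 lower, and limma on each TPM scale called 0 higher and 1 lower. The direction depended on the scaling: in the first 1000, library totals called 16 higher and 16 lower, and limma called 10 higher and 56 lower on log2(TPM + 1) and 8 higher and 40 lower on log2(TPM + 0.1). The transcript of 3984 bases, at rank 30, was at 8460, 7856 and 8912 CPM in JP2NT-OE TAB and 6318, 6282 and 6828 CPM in control TAB (log2 fold change 0.38 ± 0.06 SE, adjusted p = 0.0295 by edgeR). One of 2353 bases at rank 37 had a log2 fold change of 0.39 ± 0.06 SE, and one of 393 bases at rank 47 had 0.57 ± 0.08 SE, with adjusted p of 0.0329 and 0.0281 by edgeR. The highest banded control library lay below the lowest banded JP2NT-OE library in each of the 3. The call of the first was kept only without control TAB replicate 3, that of the second only without JP2NT-OE TAB replicate 1, and that of the third in 0 of the 6 fits without 1 banded library (adjusted p up to 0.104 for the second and 0.0920 for the third by edgeR).

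Calls were concentrated where abundance gave precision. The tested transcripts were divided by mean abundance into 3 parts of equal size. In the most abundant part 1.20% were called, 122 higher and 51 lower, with a median size of 0.48 on the log2 scale. In the middle part 0.132% were called, with a median size of 1.70, and in the least abundant part 0.0208%, 3 transcripts in all. The median SE of the log2 fold change was 0.12, 0.33 and 0.69 in these parts. Of the 13112 transcripts with a mean of at least 5 CPM, 11979 (91.4%) had a 95% interval that lay within 1 log2 unit of 0. Of the least abundant part, 6.70% had such an interval, so differences of 1 log2 unit were mostly not detectable there. By length, 0.215% of transcripts up to 1220 bases, 0.631% of those from there to 2978 bases and 0.506% of longer ones were called, and the difference between these shares was not tested.

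Some transcripts were read in every library of one banded genotype and in none of the other. Of the 96626 listed, 17 had at least 10 estimated counts in each JP2NT-OE TAB library and 0 in control TAB, and 18 showed the reverse, 0.0362% in all. The same count in unoperated hearts gave 24 and 12. In the banded hearts the median of their mean counts was 22.4 and 20.8, and 1 of the 35 was among the 195 called by edgeR. None of the 35 had whole counts in all 12 libraries, and none was at 0 in all 6 unoperated libraries.

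A small core of calls did not rest on any single banded library. When each of the 6 banded libraries was left out in turn, 9 of the 195 transcripts were called each time, 7 higher and 2 lower, and 104 were called in 0 of the 6 fits. The unoperated libraries stayed in each of these fits, and with the 6 banded libraries alone 0 of the 195 were called. Fits without control TAB replicate 1, 2 or 3 called 0.0643%, 0.0353% and 0.223% of the transcripts tested. Those without JP2NT-OE TAB replicate 1, 2 or 3 called 0.121%, 0.0484% and 0.0859%. Not all of these calls were among the 195. ENSMUST00000034172.7 was 1 of the 9. The other 6 that were higher had log2 fold changes between 0.48 and 0.80 (SE 0.05 to 0.08) and means of 12.1 to 339 CPM in banded controls. One of 3027 bases was at 28.8, 25.6 and 28.1 CPM in JP2NT-OE TAB and 15.9, 16.5 and 16.02 CPM in control TAB (log2 fold change 0.77 ± 0.06 SE, adjusted p = 0.00419 by edgeR). Its unoperated means were 31.2 ± 0.427 CPM in JP2NT-OE and 31.4 ± 1.89 CPM in controls (SD, n = 3).

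Of the 2 that were lower, one of 3513 bases was at 151, 155 and 150 CPM in JP2NT-OE TAB and 460, 355 and 375 CPM in control TAB (log2 fold change -1.38 ± 0.13 SE, adjusted p = 0.00569 by edgeR). Its unoperated means were 148 ± 20.02 CPM in JP2NT-OE and 128 ± 17.5 CPM in controls (SD, n = 3), so the banded JP2NT-OE libraries lay near the unoperated ones. The other, of 2861 bases, was at 183 ± 4.73 CPM in JP2NT-OE TAB and 254 ± 11.2 CPM in control TAB (log2 fold change -0.47 ± 0.05 SE, adjusted p = 0.00588 by edgeR). Its unoperated JP2NT-OE mean was 184 ± 4.85 CPM.

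The excess of higher over lower calls was not kept with library totals or on the TPM scales. With TMM factors the median transcript stood at -0.00329 on the log2 scale, and RLE factors called 134 higher and 56 lower (0.439%). With library totals alone the median stood at -0.08, and 51 transcripts were called higher and 79 lower (0.301%). The fits on TPM changed the test and the length correction along with the scaling. On log2(TPM + 1), 51 calls by limma stood against 365 in the lower direction (0.962%). On log2(TPM + 0.1), where the median stood at -0.13, 43 were higher and 192 lower (0.543%). A core of 76 of the 195, 28 higher and 48 lower, was called under TMM, RLE factors, library totals and both TPM scales. Each of the 195 that was tested kept its sign under each alternative, where the smallest called difference was 0.23 in size and the median of all transcripts stood no further from 0 than -0.13.

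The number of calls also moved with the test and the filter. DESeq2 called 3.37% of the 43256 transcripts, 18509 of which it gave no adjusted p. A simulation with 200 changed transcripts gave DESeq2 78 false calls and edgeR 1. It used the spread estimated by edgeR and gave every group the banded control means apart from those changes. The share of false calls in the real data was thus not tested. Of simulated 1.5-fold changes at 5 CPM or more, DESeq2 recovered 13 of 21 and edgeR 4 of 21. Of 4-fold changes they recovered 16 and 15 of 16. The share called by edgeR was 0.127% without a filter on low counts, 1.37% with at least 1 CPM in at least 3 libraries, and 0.0347% with a replicate block. In a separate fit of the 2459 transcripts with whole estimated counts, with p-values adjusted over these alone, 4.72% were called. Of these 116 calls, 96 were not called over all transcripts. With the 6 banded libraries alone edgeR called 0, with 3875 transcripts at an unadjusted p under 0.05.

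**Figure D5:**
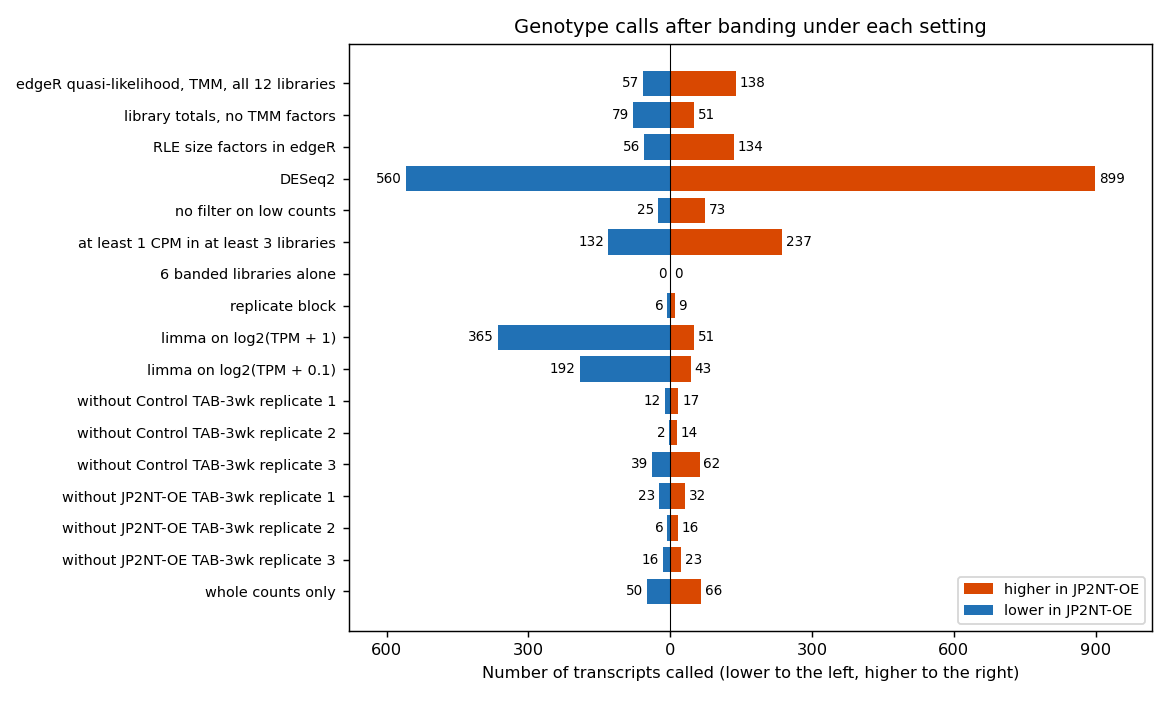
Number of transcripts called higher (orange, right) and lower (blue, left) in banded JP2NT-OE hearts under the fit used here (top) and each alternative. The count runs from 0 with the 6 banded libraries alone to 1459 with DESeq2, and lower calls outnumber higher ones with library totals and with both TPM scales.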

How the data were processed

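Left ventricular mRNA was made into strand-specific libraries, per the labels' protocols. Tools in the submitters' processing notes include kallisto 0.42.5, cutadapt 1.8.1 and FastQC 0.11.3, with build mm10. The annotation release is not given in the sources used here. Deposited by the authors were estimated counts per transcript, in which reads matching several transcripts are divided among them, and TPM values, which are corrected for length and carry no depth, per the file headers. The 7 ChIP-seq samples were not analysed here.

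Estimated counts were rounded and tested with edgeR 4.0.16 (R 4.3.3) by the quasi-likelihood test, with TMM factors, filterByExpr by group (minimum count 10, 53370 transcripts removed) and 1 mean per group over all 12 libraries, leaving 8 residual degrees of freedom. All 4 groups entered so that they share an estimate of spread. Log2 CPM used a prior count of 2. An estimated count within 0.01 of a whole number was called whole. Gene sums and gene lists could not be run, because IDs did not pair with names. Alternatives used limma 3.58.1, DESeq2 1.42.0, other scalings, filters and libraries. The scripts were tested on simulated data. Called transcripts with a mean log2 CPM of at least 1 and no overlap were ranked by log2 fold change: the first 12 in each direction are summarised, and the first 2 are named. The comparison, lists and rules were chosen with earlier results of these data known.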

Additional observations from a re-analysis of the deposited data

Results flagged for a closer look

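The genotype difference of ENSMUST00000034172.7 differed between banded and unoperated hearts by a test of that difference. Between JP2NT-OE and control hearts its log2 fold change was 3.34 ± 0.25 SE after banding and -0.21 ± 0.22 SE without surgery, a difference of 3.56 ± 0.32 SE (interaction, adjusted p = 0.0231 by edgeR). All 3 banded JP2NT-OE libraries lay above all 3 banded controls, while the unoperated groups overlapped. For ENSMUST00000114492.7 the same test gave -0.22 ± 1.05 SE (adjusted p = 0.985 by edgeR). It gave -5.19 ± 1.90 SE for ENSMUST00000054599.7 and -2.64 ± 0.46 SE for ENSMUST00000025409.7, which missed the threshold (adjusted p of 0.456 and 0.132 by edgeR).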

How the results depend on the processing

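The number of calls depended strongly on the fit. Against 195, DESeq2 called 1459, edgeR without a filter on low counts 98, a filter of at least 1 CPM in at least 3 libraries 369, and limma on log2(TPM + 1) 416. DESeq2 gave 18509 of the 43256 transcripts no adjusted p. In the simulation, which used the spread estimated by edgeR, DESeq2 made 78 false calls and edgeR 1. Of 21 transcripts changed 1.5-fold there at 5 CPM or more, DESeq2 recovered 13 and edgeR 4. RLE factors, library totals and log2(TPM + 0.1) gave 190, 130 and 235. The 6 banded libraries alone gave 0 calls with edgeR (3875 at an unadjusted p under 0.05), and DESeq2 was run with all 12 libraries only. Leaving out 1 banded library gave 16 to 101 calls, with 45104 to 45435 transcripts tested. The count was 29, 16 and 101 without control TAB 1, 2 or 3, of which 26, 13 and 59 were among the 195. It was 55, 22 and 39 without JP2NT-OE TAB 1, 2 or 3, of which 37, 21 and 28 were among the 195. Of the 195, DESeq2 called 189 and the stricter filter 193. With only the 2459 transcripts whose counts were whole, an alternative chosen after seeing the data, 116 were called (66 higher, 50 lower), among them each of the 20 such transcripts in the 195. The p-values there were adjusted over fewer tests.

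The replicate block left 15 calls, 9 higher and 6 lower, all among the 195. Under it the adjusted p was 0.112 for ENSMUST00000114492.7 and 0.0560 for ENSMUST00000025409.7 by edgeR. Same-numbered banded libraries did not deviate together: the correlations of their deviations were -0.0908, -0.0722 and 0.0256, and 1 of 3 control libraries deviated most like the JP2NT-OE library of its own number. The labels do not say that a number marks a shared litter or day, so the numbers were not taken as pairs. Over 15 alternatives the log2 fold change of ENSMUST00000034172.7 ran from 2.78 to 3.49 and that of ENSMUST00000025409.7 from -2.46 to -1.52. The planned fits on gene sums were not run.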

Other observations

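A transcript of 2898 bases was at 0 CPM in each banded control after counts were rounded, and at 1.95, 8.31 and 5.87 CPM in the JP2NT-OE TAB libraries. It was at 0.707 CPM or less in each unoperated library. A transcript of 991 bases went the other way. It was at 0 CPM in each JP2NT-OE TAB library and at 0.376, 1.19 and 1.32 CPM in control TAB, with 0.190 to 1.08 CPM in unoperated hearts. Neither had whole counts in all 12 libraries. The edgeR calls of both were lost in most fits that left out 1 banded library, 6 of 6 for the first and 4 of 6 for the second.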
